A study of Homo sapiens with 6 samples.

Results

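The mitochondrial ribosomal protein genes are nuclear genes whose products form the ribosome inside mitochondria. They were found here as the genes whose current symbol is MRPL or MRPS followed by a number and at most 1 letter. The RefSeq gene table holds 77 such genes. For 75 of them an array probe set named that gene alone, and these 75, among 19775 genes measured, are described here: 48 MRPL genes, counted as the large subunit, and 27 MRPS genes, counted as the small subunit. By structure, MRPS18A and MRPS30 sit in the large subunit despite their symbols. The other 2, MRPL53 and MRPS24, were measured only by probe sets that also name a second gene, and their values are given apart.

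The cells were T47D, a long-established luminal line from a human breast tumour. GDC-0941 blocks the class I PI3 kinases, lipid kinases upstream of AKT. RNA was measured on 6 oligonucleotide arrays, 3 from T47D cells given GDC-0941 for 6 hours and 3 from T47D controls whose agent is recorded as none. The label states a dose of 1 mM, but a micro sign may have been lost, so the unit is uncertain, and whether controls received the solvent is not given. All values are deposited log2 signals made with RMA, which places the arrays on one common distribution, so each difference is relative to the other transcripts. Array medians lay between 7.34 and 7.38, and columns correlated at r = 0.9970 to 0.9983 within a group and 0.9917 to 0.9942 between groups, across probe sets. The 8 luminal markers read 11.62 to 14.34 in controls. The 4 basal or mesenchymal markers read 6.11 to 8.2, the 3 leukocyte markers 6.20 to 8.78 and 5 fibroblast genes 4.06 to 10.40, the brightest being COL1A1. After GDC-0941 no basal or leukocyte marker was called in limma, 1 of 5 fibroblast genes was (COL1A1, higher by 0.56), and 2 luminal markers were lower (KRT8 by -0.23, KRT18 by -0.21) and 2 higher (FOXA1 by 0.53, PGR by 0.42). Their part in any result was not tested.

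Mitochondrial ribosomes translate the few proteins that mitochondrial DNA encodes, most of them subunits of the respiratory chain. Their RNAs come from mitochondrial DNA, whereas every ribosomal protein is translated in the cytosol and imported. Many of these proteins descend from bacterial ribosomal proteins, and others have no counterpart among them. The large subunit joins amino acids and holds the exit tunnel, and the small subunit binds and decodes the messenger.

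After GDC-0941, most of these transcripts were moderately lower. Of the 75 genes, 58 fell and 1 rose at an adjusted p under 0.05 (limma, Benjamini-Hochberg over all 19775 genes), where 15.6% of all genes were called lower and 12.1% higher (27.8% either way). In RNA from bulk cells, fewer cells that express a gene and less RNA per cell cannot be told apart. The members' median difference, GDC-0941 minus control, was -0.31 on the log2 scale, against -0.02 over all genes. In 62 of the 75 the 3 treated arrays all lay below the 3 controls (24% of all genes did so), and in 1 all lay above (17.5% of all genes). All 75 probe sets gave a mean signal, 9.28 to 12.38, above the median over genes, which describes probe sets and does not rank transcripts. Among the 9887 genes above that median, fitted alone, 31.4% were called lower. Within the members, level and difference were hardly related (Spearman's rho = 0.09 and Pearson's r = 0.11 across 75 genes that share the same 6 arrays). The direction depends in part on the reference: when arrays were instead centred on 18 hybridisation control probe sets, 26 members were called lower and 5 higher, 83.9% lower among those called instead of 98.3%. That centring shifted the all-gene median from -0.017 to 0.152, and the members' median from -0.31 to -0.14. With it, 4.53% of all genes were called lower and 28.8% higher.

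**Figure D1:**
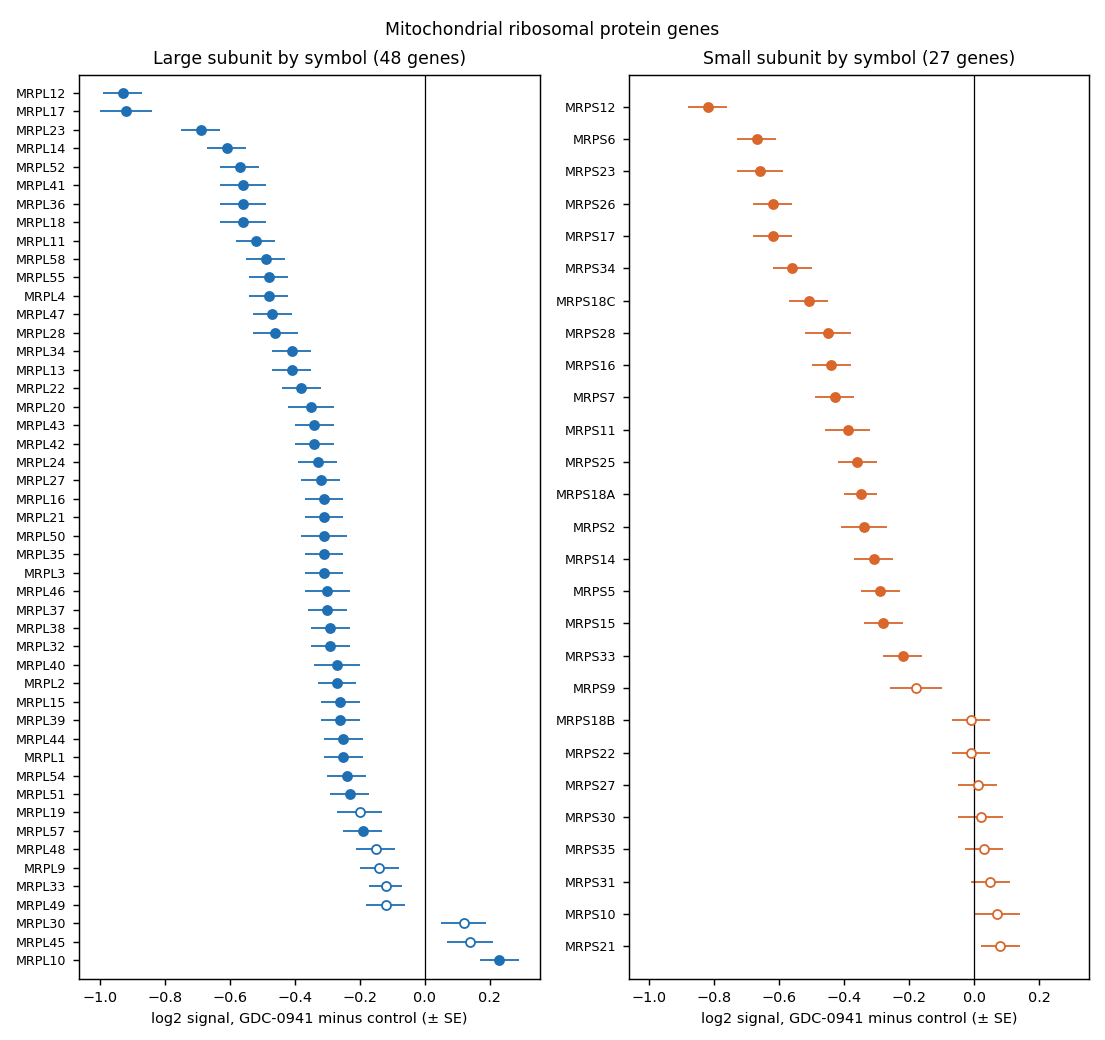
Log2 difference, GDC-0941 minus control, of each of the 75 mitochondrial ribosomal protein genes with its standard error, for the large subunit (left) and the small subunit (right). Filled points passed an adjusted p of 0.05 in limma and open points did not. With subunits by symbol, 40 of the 48 large subunit genes were called lower, as were 18 of the 27 small subunit genes. The difference of 8 genes with MRPS symbols was under 0.08 in size.

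Both subunits took part, with nearly the same median. In the large subunit 40 of 48 genes fell and 1 rose, with a median of -0.31. In the small subunit 18 of 27 fell and none rose in limma (0 also at an unadjusted p under 0.05), with a median of -0.34. Centred on hybridisation controls, the large subunit had 16 genes lower and 3 higher (median -0.14) and the small subunit 10 lower and 2 higher (median -0.17). With the deposited values the medians differed by 0.03, large minus small. Averaging all probe sets of a gene turned this difference to -0.08, so neither subunit was the lower one under both rules. The mean differences were -0.34 in the large and -0.31 in the small subunit, with a spread over genes of 0.22 and 0.27 (SD over 48 and 27 genes). No test was made between the subunits, because genes of 1 subunit are not replicates of the treatment.

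With the deposited values, the genes nearest to 0 all carried MRPS symbols, a pattern that was not tested. Every gene with an MRPL symbol had a difference of more than 0.08 in size. Of the genes with an MRPS symbol 8 lay closer to 0 than that, a limit chosen after the values were seen: MRPS10, MRPS18B, MRPS21, MRPS22, MRPS27, MRPS30, MRPS31 and MRPS35. By structure, MRPS30 sits in the large subunit. The remaining member of the small subunit that was not called was MRPS9, at -0.18 ± 0.08 (SE). The small subunit's upper quartile was accordingly -0.01, against -0.25 in the large subunit. Centring on hybridisation controls moved every gene by the same amount, so only the place of 0 changed, not the members' order or spacing. The same 8 genes then lay between 0.15 and 0.24, with MRPS10 and MRPS21 called higher. Nearest to 0 were then MRPS9 (-0.01), MRPL57 (-0.02) and MRPL48 (0.02).

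**Figure D2:**
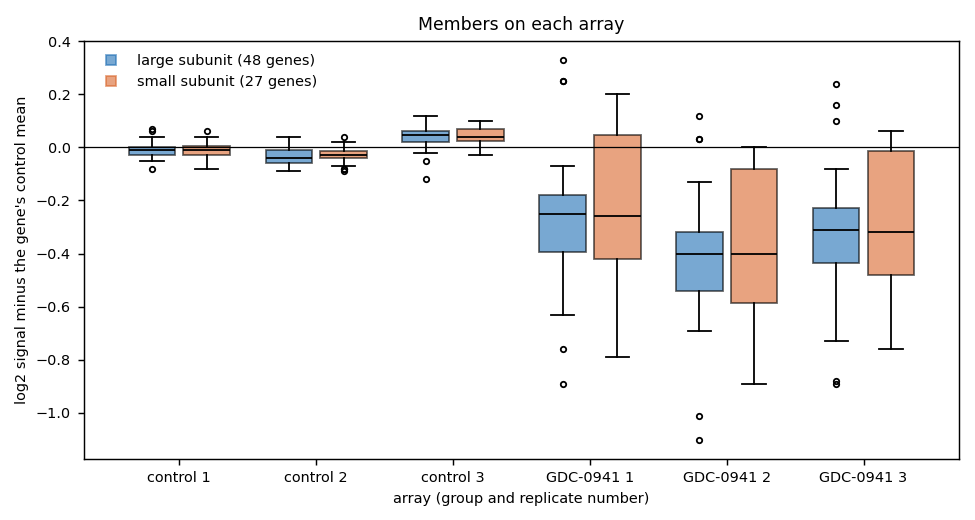
Log2 signal of each member minus its own control mean, as a box plot for each array (box, quartiles; line, median; whiskers, up to 1.5 times the box; points beyond), with large subunit genes in blue and small subunit genes in orange. Medians were -0.25, -0.40 and -0.31 in the large subunit and -0.26, -0.41 and -0.32 in the small subunit on GDC-0941 arrays 1, 2 and 3, and between -0.04 and 0.04 on the controls.

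Array by array, the subunits moved together. Relative to each gene's control mean, the median of the large subunit was -0.25, -0.40 and -0.31 on GDC-0941 replicates 1, 2 and 3, and that of the small subunit -0.26, -0.41 and -0.32. On controls 1, 2 and 3 the large subunit stood at -0.01, -0.04 and 0.04 and the small at -0.01, -0.03 and 0.04. The medians of the treated arrays did not overlap those of the controls in either subunit, and replicate 2 was the lowest. On that array 72 of the 75 members were below their control mean, against 64 on replicate 1 and 65 on replicate 3.

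The ribosomal stalk, which recruits translation factors to the large subunit, held both the largest fall and the one rise. MRPL12, the mitochondrial relative of the bacterial stalk protein L7/L12, read 10.96, 10.84 and 10.97 on the treated arrays and 11.83, 11.85 and 11.87 on the controls. The groups lay far apart, and MRPL12 was 1.90-fold lower (log2 difference -0.93 ± 0.06 SE, adjusted p = 1.11e-06 in limma). MRPL10, which anchors MRPL12 on the ribosome, read 11.24, 11.03 and 11.15 after GDC-0941 and 10.87, 10.93 and 10.93 in controls. It was the 1 member called higher, by 0.23 ± 0.06 (SE, adjusted p = 0.0185 in limma), and every treated array was above every control. Its call was lost without GDC-0941 replicate 1, GDC-0941 replicate 3 or control replicate 1 (adjusted p = 0.0542, 0.0617 and 0.0682 in limma). MRPL11, at the base of the stalk, fell 1.43-fold, from 10.83 ± 0.07 to 10.31 ± 0.06 (SD over 3 arrays in each group, adjusted p = 7.01e-05 in limma). The fall of MRPL12 rested on 1 of its 2 probe sets. The other, dimmer at a mean of 7.59, differed by -0.09 without passing, and the call was lost where it was taken instead, while the mean of both gave -0.51.

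At the exit tunnel, through which the new chain leaves, 5 of 6 listed genes fell and none rose in limma (0 at an unadjusted p under 0.05). MRPL17 read 9.77, 9.43 and 9.64 on treated arrays against 10.52, 10.47 and 10.59 on controls. It was the second largest fall, 1.89-fold (-0.92 ± 0.08 SE, adjusted p = 1.04e-05 in limma), with its treated arrays more spread than those of MRPL12. MRPL23 read 9.26, 9.20 and 9.16 against 9.85, 9.83 and 9.99, also without overlap, a 1.61-fold fall (adjusted p = 1.35e-05 in limma). Its difference of -0.69 became -0.20 with its unmarked, dimmer probe set and -0.44 with the mean of both. MRPL22, MRPL24 and MRPL44, named here by their place in the list, had differences of -0.38, -0.33 and -0.25, all called with the deposited values. MRPL45, which docks the ribosome near the inner membrane, was not called, at 0.14 ± 0.07 (SE). Centred on hybridisation controls, 2 of the 6 were lower, MRPL17 and MRPL23, and MRPL45 was higher (0.31, adjusted p = 0.00605 in limma).

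Among 7 proteins listed for the central protuberance, the crown that faces the small subunit, 6 fell and none rose in limma (0 at an unadjusted p under 0.05). MRPL52 fell 1.48-fold. Its arrays read 9.85, 9.65 and 9.78 after GDC-0941 and 10.30, 10.34 and 10.34 in controls, and both of its probe sets were called lower. MRPL18 had a difference of -0.56, and MRPL27, MRPL38, MRPL40 and MRPL46 had differences of -0.32, -0.29, -0.27 and -0.30. MRPL48 was not called, at -0.15 ± 0.06 (SE), although its 3 treated arrays were below the controls. Centred on hybridisation controls, 2 of the 7 were lower, MRPL18 and MRPL52, and none was higher.

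Among large subunit genes outside these lists, MRPL14 fell 1.52-fold and MRPL36 1.48-fold. MRPL14 read 10.69, 10.59 and 10.69 after treatment and 11.26, 11.22 and 11.31 in controls, and MRPL36 10.47, 10.33 and 10.43 against 10.94, 10.89 and 11.09. Neither gene's groups overlapped. MRPL58, a peptidyl-tRNA hydrolase built into the large subunit that frees chains from stalled ribosomes, fell 1.40-fold, from 11.23 ± 0.06 to 10.74 ± 0.05 (SD over 3 arrays in each group, adjusted p = 8.42e-05 in limma; log2 difference -0.49, or -0.32 centred on hybridisation controls). The large subunit genes with the smallest differences among those not called were MRPL49 (-0.12 ± 0.06 SE), MRPL33 (-0.12 ± 0.05) and MRPL30 (0.12 ± 0.07). In MRPL49 and MRPL33 the treated arrays still lay below the controls, whereas in MRPL30 the groups overlapped. MRPL30 and MRPL45 were among the 5 genes called higher under centring on hybridisation controls, with MRPL10, MRPS10 and MRPS21.

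MRPS12, the protein of the decoding site whose bacterial relative is the streptomycin target S12, had the largest fall of the small subunit. Its treated arrays read 9.77, 9.67 and 9.80 and its controls 10.53, 10.53 and 10.63. The fall was 1.76-fold (-0.82 ± 0.06 SE, adjusted p = 3.2e-06 in limma), and 3 of its 4 probe sets were called lower. The mean of the 4 gave -0.47. MRPS6, another protein with a bacterial relative, read 10.45, 10.29 and 10.36 against 11.03, 11.02 and 11.06. MRPS17 read 10.47, 10.32 and 10.44 against 11.01, 11 and 11.09. These 2 genes fell 1.59-fold and 1.54-fold with no overlap between groups.

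Proteins of the small subunit that bacteria lack were split. MRPS23 read 11.06, 10.79 and 10.93 after GDC-0941 and 11.61, 11.52 and 11.63 in controls, a 1.58-fold fall. MRPS26 read 10.29, 10.09 and 10.19 against 10.80, 10.79 and 10.84, and MRPS34 10.23, 10.05 and 10.17 against 10.69, 10.66 and 10.78. They fell 1.53-fold and 1.47-fold, and all 3 genes had treated arrays wholly below the controls. In MRPS23 and MRPS26 the fall rested on the brighter probe set, and the dimmer one differed by 0.02 and -0.02. MRPS22, in contrast, read 10.84, 10.70 and 10.78 against 10.79, 10.70 and 10.85. MRPS27 read 11.19, 11.04 and 11.10 against 11.09, 11.06 and 11.14. Their groups overlapped, with differences of -0.01 ± 0.06 and 0.01 ± 0.06 (SE), and all 4 probe sets of MRPS22 lay between -0.07 and -0.01. Those 4 probe sets all carry the manufacturer's mark for possible hybridisation to other transcripts.

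The 3 relatives of bacterial S18 differed from one another. MRPS18C, the one that sits in the usual S18 place, read 10.14, 9.98 and 10.06 after GDC-0941 and 10.59, 10.57 and 10.55 in controls, a difference of -0.51 ± 0.06 (SE, adjusted p = 6.41e-05 in limma). MRPS18A, which is built into the large subunit despite its name, read 10.15, 10.12 and 10.14 against 10.46, 10.46 and 10.54, a difference of -0.35 ± 0.05 (SE, adjusted p = 0.000483 in limma), which lost its call when centred on hybridisation controls (-0.18, adjusted p = 0.126 in limma). MRPS18B, at another place in the small subunit, read 12.25, 12.18 and 12.19 against 12.28, 12.19 and 12.19, a difference of -0.01 ± 0.06 (SE, adjusted p = 0.892 in limma). The first 2 were separated from their controls on every array, while the arrays of MRPS18B overlapped. Both probe sets of MRPS18A were called lower and both of MRPS18B were not called, but only the brightest of the 3 probe sets of MRPS18C was called. The other 2 of MRPS18C were dim, with means of 6.18 and 4.94, and the mean of its probe sets did not pass (-0.11, adjusted p = 0.118 in limma). MRPS30, also placed in the large subunit, differed by 0.02 ± 0.07 (SE), at 10.87, 10.66 and 10.75 against 10.78, 10.70 and 10.73.

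Grouped by origin, large subunit proteins with relatives among bacterial ribosomal proteins fell in 25 of 30 cases and rose in 1, with a median of -0.34. Those counted as having no such relative fell in 15 of 18, with a median of -0.28. In the small subunit the counts were 12 of 16 (median -0.36) and 5 of 9 (median -0.22). In these last 3 groups none rose in limma (0 at an unadjusted p under 0.05). The quartiles of all 4 groups overlapped. Centred on hybridisation controls, the same groups in turn had 13 lower and 2 higher, 3 and 1, 7 and 2, and 3 and 0.

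**Figure D3:**
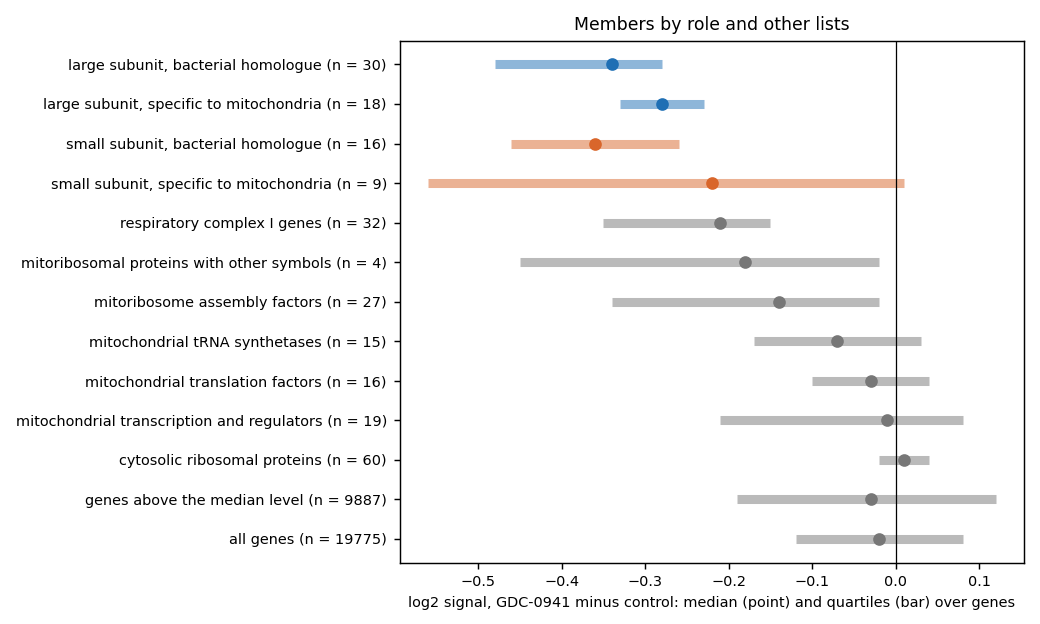
Median (point) and quartiles (bar) of the log2 difference, GDC-0941 minus control, over the genes of each group, for members by subunit and origin (blue and orange) and for other lists and all genes (grey). The 4 member groups had medians between -0.36 and -0.22, complex I genes -0.21, assembly factors -0.14, and cytosolic ribosomal proteins 0.01, beside -0.02 for all genes; centred on hybridisation controls (not drawn), the assembly factors' median was 0.03 and that of all genes 0.15.

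The proteins around the mitochondrial ribosome did not share one level of change. Of 4 measured mitoribosomal proteins with other symbols, 2 fell and none rose in limma (0 at an unadjusted p under 0.05). Over all genes 15.6% were called lower and 12.1% higher. GADD45GIP1, part of the large subunit near the tunnel, read 8.67, 8.59 and 8.74 against 9.39, 9.47 and 9.59, a 1.77-fold fall (adjusted p = 6.49e-06 in limma). Its difference of -0.82 became -0.39 with the mean of its probe sets. CHCHD1 of the small subunit fell by 0.33, a call lost when centred on hybridisation controls (-0.16, adjusted p = 0.17 in limma), whereas its fellow small subunit proteins DAP3 and PTCD3 differed by -0.03 ± 0.06 and 0.01 ± 0.05 (SE). The median of the 4 was -0.18 and, with arrays centred on hybridisation controls, -0.01.

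Of 27 assembly factors, which process ribosomal RNA or help the subunits form, 12 fell (44.4%) and 1 rose (3.7%). These shares stood beside 15.6% and 12.1% of all genes, and the median was -0.14. Centred on hybridisation controls, 5 fell and 4 rose (median 0.03), beside 4.53% and 28.8% of all genes (median 0.15). C1QBP, a matrix protein that binds RNA, fell 1.5-fold, from 12.31 ± 0.05 to 11.72 ± 0.12. MTERF3, needed for large subunit assembly, fell 1.48-fold, from 10.30 ± 0.04 to 9.73 ± 0.07. MRM2, a methyltransferase of the large ribosomal RNA, fell 1.47-fold, from 11.41 ± 0.05 to 10.85 ± 0.06 (mean ± SD, n = 3 each). All 3 had an adjusted p of at most 6.93e-05 in limma. The 1 that rose, named after its value was seen, was the GTPase NOA1 (0.24 ± 0.06 SE).

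Among 16 translation factors and partners, 3 fell (18.8%) and 2 rose (12.5%), shares near the 15.6% and 12.1% of all genes, and the median of -0.03 became 0.14 with the arrays centred on hybridisation controls. SLIRP and LRPPRC, partners in a complex that stabilises mitochondrial messengers, had opposite differences. SLIRP read 12.50, 12.39 and 12.50 against 13.00, 13.08 and 13.13, a difference of -0.61 ± 0.06 (SE, adjusted p = 2.29e-05 in limma). LRPPRC read 12.16, 12.03 and 12.05 against 11.74, 11.76 and 11.82, a difference of 0.31 ± 0.06 (SE, adjusted p = 0.00191 in limma). SLIRP was wholly below its controls and LRPPRC wholly above, although LRPPRC lost its call with the mean of its probe sets (adjusted p = 0.41 in limma) or with an unmarked probe set (adjusted p = 0.349 in limma). MTFMT, which formylates the initiator tRNA, fell by 0.33, a call lost when centred on hybridisation controls (-0.16, adjusted p = 0.191 in limma). The elongation factor TUFM, not among the genes named by rule, differed by -0.06 ± 0.06 (SE).

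Of 15 mitochondrial tRNA synthetases 4 fell and none rose in limma (0 at an unadjusted p under 0.05). With centring on hybridisation controls 1 fell and 4 rose, and the median went from -0.07 to 0.10. LARS2 fell by 0.44, MARS2 by 0.36 and EARS2 by 0.32. With that centring LARS2 stood at -0.28, and MARS2 (-0.19, adjusted p = 0.105 in limma) and EARS2 (-0.15, adjusted p = 0.209 in limma) lost their calls. The mean of its probe sets also gave -0.15 for EARS2. Among 19 genes of mitochondrial transcription and its regulators 6 fell (31.6%) and 3 rose (15.8%), beside 15.6% and 12.1% of all genes. With that centring 3 fell and 6 rose, beside 4.53% and 28.8% of all genes. PPRC1, a coactivator related to PGC-1, read 9.19, 8.93 and 9.05 against 9.90, 9.77 and 9.90, a 1.74-fold fall (adjusted p = 1.25e-05 in limma). The DNA polymerase POLG fell by 0.45, and stood at -0.28 with that centring and -0.27 with the mean of its probe sets. MYC was higher by 0.46 ± 0.08 (SE, adjusted p = 8e-04 in limma). NRF1 and GABPA, transcription factors known to bind promoters of mitochondrial genes, were called lower and higher, by -0.21 ± 0.07 and 0.33 ± 0.08 (SE), and YY1 was higher by 0.28 ± 0.07, all 3 given because their motifs were searched.

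For scale, 15.6% of all genes were called lower and 12.1% higher with the deposited values (median -0.02). Complex I of the respiratory chain had 23 of 32 genes lower and 1 higher, with a median of -0.21. Of 60 cytosolic ribosomal protein genes 5 fell and none rose in limma (1 higher at an unadjusted p under 0.05), with a median of 0.01. With the arrays centred on hybridisation controls these became 6 lower and 3 higher (median -0.04), and 1 lower and 6 higher (median 0.18). Of all genes 4.53% were then called lower and 28.8% higher (median 0.15). No test set the families against one another.

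The promoters of these genes were searched for 5 motifs, on both strands, from 250 bases before to 50 bases after each RefSeq start (GRCh38.p14). The promoter table held 67 of the 75 members. Letters of the ETS family motif, CCGGAAG, to which GABPA binds, were found in 29 of the 67 (43.3%), against 16.6% of 15384 measured genes in the table and 10.3% of all 35116 promoters. The YY1 motif AAGATGG was in 23 members (34.3%), against 7.92% of measured genes and 5.84% of all promoters. Both motifs were present in 9 members (13.4%) and in 1.74% of measured genes. The E-box CACGTG, which MYC binds, was in 9 members (13.4%), against 10.9% of measured genes and 7.26% of all promoters. The palindromic NRF1 motif was in 1 member, MRPL17, and in 2.04% of measured genes and 1.24% of all promoters. The FOXO motif GTAAACA was in none of the 67, in 3.76% of measured genes and in 3.42% of all promoters. The ETS motif ends and the YY1 motif begins with AAG, so these can overlap where they adjoin. A match is a description of letters, not a binding site.

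The motifs did not sort the members by their change. Members with the ETS letters had a median difference of -0.32 and those without -0.31. With and without the YY1 letters the medians were -0.34 and -0.31, and with and without the E-box -0.34 and -0.31. Among the 9 members with both ETS and YY1 letters 8 were called lower, and among the 24 with neither 20 were. The sequences below, from RefSeq (GRCh38.p14), run from 150 bases before to 30 bases after the start, 5′ to 3′ on the gene's strand, with motif matches in capitals. MRPL17 is shown for the NRF1 match, MRPL52 and MRPS12 as large falls, MRPS18A and MRPS18B as relatives that differ, and MRPS10 as a gene with the letters of MRPS18A and no call.
MRPL17, chr11:6683311-6683490, minus strand: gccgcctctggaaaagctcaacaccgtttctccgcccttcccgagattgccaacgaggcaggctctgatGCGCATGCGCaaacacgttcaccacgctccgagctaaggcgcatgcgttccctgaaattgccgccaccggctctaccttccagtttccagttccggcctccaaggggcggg
MRPL52, chr14:22829737-22829916, plus strand: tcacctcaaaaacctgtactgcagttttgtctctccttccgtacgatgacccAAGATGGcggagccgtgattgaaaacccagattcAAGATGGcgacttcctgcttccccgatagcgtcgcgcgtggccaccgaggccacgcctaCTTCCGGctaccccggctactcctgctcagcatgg
MRPS12, chr19:38930794-38930973, plus strand: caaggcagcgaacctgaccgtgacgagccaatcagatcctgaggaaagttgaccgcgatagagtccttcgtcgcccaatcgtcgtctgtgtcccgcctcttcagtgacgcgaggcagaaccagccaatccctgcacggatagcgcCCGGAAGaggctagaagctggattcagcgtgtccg
MRPS18A, chr6:43687762-43687941, minus strand: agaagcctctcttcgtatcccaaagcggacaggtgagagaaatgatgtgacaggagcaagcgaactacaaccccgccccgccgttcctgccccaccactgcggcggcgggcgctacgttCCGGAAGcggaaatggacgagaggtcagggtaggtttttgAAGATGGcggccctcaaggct
MRPS18B, chr6:30617690-30617869, plus strand: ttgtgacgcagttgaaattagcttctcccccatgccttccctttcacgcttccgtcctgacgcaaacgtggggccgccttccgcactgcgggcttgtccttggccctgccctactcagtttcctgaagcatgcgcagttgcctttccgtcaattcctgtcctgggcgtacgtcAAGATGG
MRPS10, chr6:42217832-42218011, minus strand: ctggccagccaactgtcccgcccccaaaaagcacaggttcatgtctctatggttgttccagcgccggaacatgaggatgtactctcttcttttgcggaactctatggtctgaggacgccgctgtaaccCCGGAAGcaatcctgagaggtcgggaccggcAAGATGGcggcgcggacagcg

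Counting the start as base 1, MRPL17 has its match at base -81. MRPL52 has the YY1 letters at bases -98 and -64 and the ETS letters, on the other strand, at base -5, and MRPS12 has ETS letters at base -5. MRPS12 also holds YY1 letters in the longer stretch searched but outside the window shown, so it is among the 9 with both. MRPS18A and MRPS10 resemble each other in layout: ETS letters at bases -31 and -22, and YY1 letters at base 10 in both. Their transcripts differed by -0.35 ± 0.05 and 0.07 ± 0.07 (SE). MRPS10 read 11.20, 10.97 and 11.06 after GDC-0941 and 10.94, 10.98 and 11.10 in controls, so its groups overlapped. MRPS18B has YY1 letters at base 24 and no ETS letters in this window.

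Many of these genes start beside another gene on the opposite strand. Of the 67 members with a listed promoter, 29 had such a start within 1000 bases. In 1 case both were members: MRPL46 and MRPS11 start 320 bases apart, and both fell, by 0.30 and 0.39. In 21 pairs the partner was another measured gene. The member was called lower in 16 of these, and its partner was then lower in 4, not called in 11 and higher in 1. Of all 21 partners 5 were lower and 2 higher, where 15.6% of all genes were called lower and 12.1% higher. Over the 21 pairs the median difference was -0.30 for members and -0.07 for partners.

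**Figure D4:**
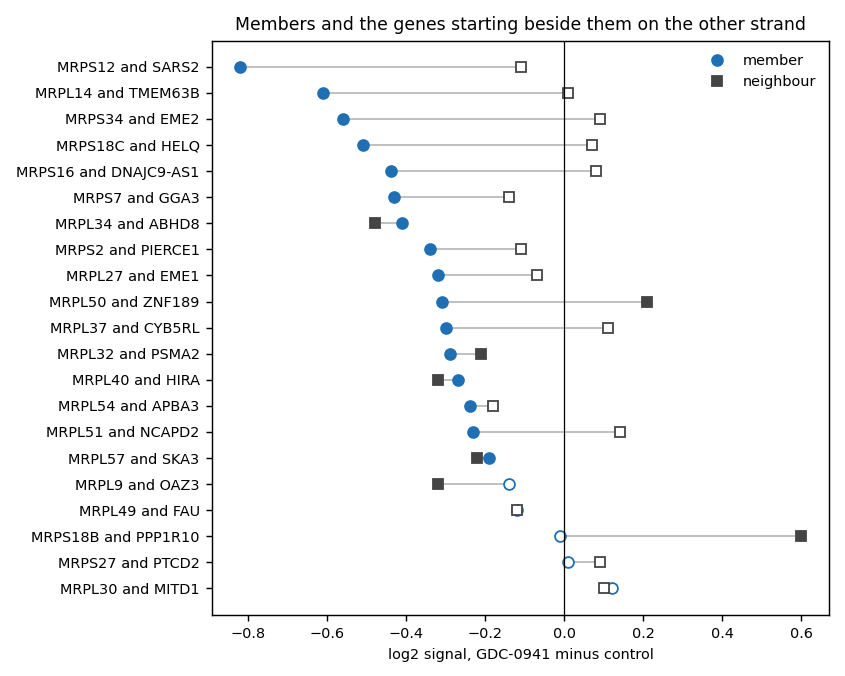
Log2 difference, GDC-0941 minus control, of 21 members (circles) and of the gene that starts within 1000 bases on the other strand (squares). Filled symbols passed an adjusted p of 0.05 in limma. The partners had a median of -0.07, and MRPS12 differed most from its partner, at -0.82 beside -0.11 for SARS2.

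MRPS12 shares its promoter region with SARS2, the mitochondrial seryl-tRNA synthetase, 181 bases away, whose difference was -0.11 ± 0.06 (SE, adjusted p = 0.197 in limma). MRPL14 lay 240 bases from TMEM63B (0.01 ± 0.07) and MRPS18C 175 bases from HELQ (0.07 ± 0.06 SE). MRPL50 and ZNF189, 233 bases apart, were called in opposite directions, at -0.31 and 0.21. PPP1R10, a phosphatase subunit 597 bases from MRPS18B, was higher by 0.60 ± 0.07 (SE, adjusted p = 5.15e-05 in limma), while MRPS18B was not called. MRPL32 fell together with PSMA2, a proteasome subunit (-0.29 and -0.21). These pairs were picked from the list after their values were seen.

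How far the result depends on the probe set was read from all 140 probe sets that name 1 member alone. Of these 74 (52.9%) were called lower and 2 higher, where 9.89% of all 54613 probe sets were lower and 8.88% higher (limma, adjusted over all of them). For 37 members there were several probe sets. In 4 of them, all probe sets were called lower, in 26 some were, in 6 none was called and in 1, MRPL30, a dimmer probe set was called higher. In no member were probe sets called in opposite directions. The 65 probe sets other than the brightest had a median difference of -0.09, against -0.31 for the brightest, and a median level of 8.12 against 10.78. Of the 31 above the median gene level of 8.2, 10 were called lower, and of the 34 at or below it, 7.

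**Figure D5:**
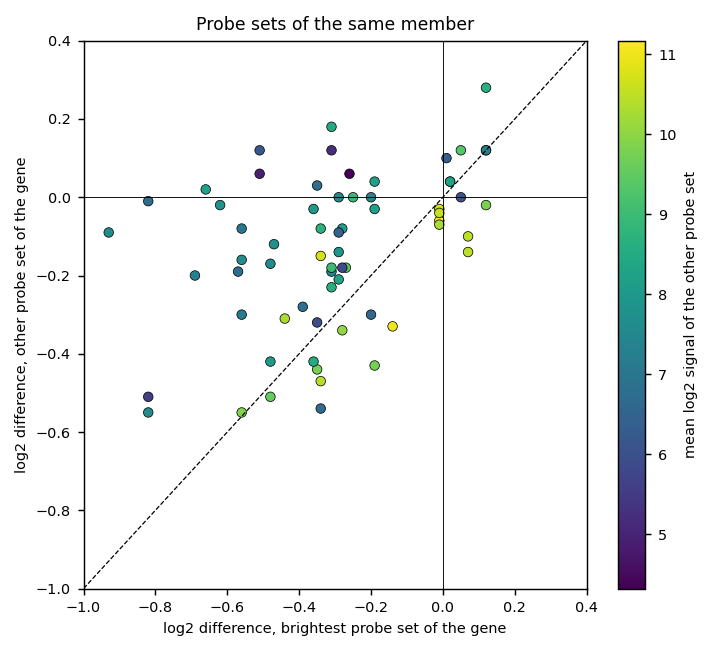
Log2 difference, GDC-0941 minus control, of the brightest probe set of a member (horizontal axis) and of each other probe set of the same gene (vertical axis), for 37 members and 65 other probe sets, coloured by the mean log2 signal of the other probe set. The dashed line marks equality. The other probe sets had a median of -0.09 against -0.31.

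MRPL4, MRPS16, MRPS18A and MRPL52 were the genes with every probe set lower. MRPL4, a core protein of the large subunit, had 3, at -0.48, -0.51 and -0.42. In MRPS23 and MRPS26 the second probe set, at mean levels of 8.27 and 7.78, differed by 0.02 and -0.02 and was not called, and the mean of both gave -0.32 in each gene. MRPL9, MRPL19 and MRPL57 showed the reverse: a dimmer probe set was called lower (-0.33, -0.30 and -0.43) while the brightest did not pass over all probe sets. Taking unmarked probe sets first left 49 members called lower, and averaging the probe sets left 52.

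For the 2 genes without a probe set of their own, the shared probe sets read as follows. That of MRPL53 and CCDC142 read 11.25, 11.08 and 11.20 after GDC-0941 and 11.36, 11.32 and 11.42 in controls (-0.19, adjusted p = 0.0659 in limma over probe sets). That of MRPS24 and the readthrough URGCP-MRPS24 read 12.34, 12.32 and 12.37 against 12.62, 12.57 and 12.67 (-0.28, adjusted p = 0.00668 in limma over probe sets). In both, the treated arrays lay below the controls, and which of the named transcripts they report is not known.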

How the data were processed

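The authors deposited log2 values for 54675 probe sets on 6 arrays, made with RMA per the submitters' processing notes. Its version was not given in the sources used here. That the scale is log2 was judged from the range, 3 to 14.81. Probe sets were named through the platform annotation, with symbols updated by Entrez identifier (RefSeq, GRCh38.p14). Each gene took the brightest probe set naming it alone (41091 probe sets, 19775 genes), with no filter on dim genes.

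Groups were compared with limma 3.58.1 (R 4.3.3, lmFit and eBayes, two-sided) over all genes, and tested on simulated data first. Lists are described by counts and medians. Starts and strands of neighbouring genes came from the RefSeq promoter table. Members, lists and alternatives were chosen with earlier results of these data known. Genes were named by rule: the 6 largest called falls per subunit with separated arrays, called rises, members fixed by role (of these MRPS36 no longer has a matching symbol), the 3 uncalled members per subunit nearest 0, and the top 3 of each list. Others are values by list place or were picked after being seen.

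With 3 arrays per group, the array number limits precision. Nothing says the replicates were separate cultures, so p-values measure only how these samples vary, and that spread may be technical. Same-numbered arrays did not deviate together (r = -0.35, 0.19 and -0.02), so numbers were not used for pairing. Figures were drawn with matplotlib 3.10.9.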

Additional observations from a re-analysis of the deposited data

How the results depend on the processing

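The count of members called lower stayed between 49 and 63 in every alternative but 1. Centring on hybridisation controls gave 26 lower and 5 higher, subunit medians of -0.14 (large) and -0.17 (small), and 11 lower and 18 higher among genes of the related lists (27 and 6 with the deposited values). With that centring 4.53% of all genes were called lower and 28.8% higher. Members called higher numbered 2 after quantile normalization again, with array weights and with genes above the median level alone, and 0 at an adjusted p under 0.01. Array weights, whose estimate stopped before convergence, gave 14 related genes called higher. Leaving out 1 array gave 56 to 60 members lower and 0 to 2 higher, medians of -0.35 to -0.28 (large) and -0.36 to -0.28 (small), a large minus small difference of 0.01 to 0.04, and 23 to 27 related genes lower and 4 to 6 higher. That difference was 0.01 with array weights or unmarked probe sets first, and -0.08 with the mean of all probe sets, where the small subunit's median was -0.22. The cause of any of these changes was not tested. The replicate block gave 59 lower and 1 higher, and changed the call of none of the named genes. Named genes kept their side of the threshold in 554 cases over the alternatives refitted at an adjusted p under 0.05. They lost it in 12 and gained it in 3, and none reversed as a called gene. The stricter limit of 0.01, which MRPL10 did not pass, is not in this tally.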
